A study of Rattus norvegicus with 38 samples.

Results

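The myosin switch and fetal cardiac stress genes examined here are Myh6, Myh7, Acta1, Actc1, Nppa, Nppb and Ankrd1. Every probeset that the platform annotation assigns to one of these 7 genes, under its present or an older symbol, was taken. This gave 13 of the 15866 non-control probesets of the RAE230A heart array. Of the 13, 9 name 1 gene alone and 4 are shared between 2 genes. The shared ones are 1 probeset for Myh7 and Myh6 and 3 for Acta2 and Actc1, and Actc1 has no probeset of its own.

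The 18 hearts came from rats killed on post-transplant day 6 after a donor heart of the Dark Agouti (DA) strain was joined to the vessels of the abdomen. Isogeneic recipients were DA rats, and they gave 4 DA isografts and 4 native DA hearts. Allogeneic recipients were Brown Norway (BN) rats, and they gave 5 DA allografts and 5 native BN hearts. Ages and immunosuppression are not given in the sources used here. The strain of each heart comes from the study's methods, which also describe the allografts as histologically rejecting. Every native heart came from a rat that carried a graft, so strain in native hearts cannot be told apart from the kind of graft carried. A transplanted heart and the native heart with the same recipient number (A3 to A7, I9, I11, I12 and I13) come from 1 rat. RNA was taken from cross-sections of both ventricles and the septum. Each of the 18 measured genes of a cardiac myocyte list exceeded the array median in 1 or more arrays of every group.

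Adult rat ventricle runs mainly on the fast alpha-myosin heavy chain encoded by Myh6, and fetal or overloaded ventricle makes more of the slow beta-myosin encoded by Myh7. The actins have a like pair, with Actc1 encoding the cardiac and Acta1 the skeletal alpha-actin of the sarcomere, and Acta1 is more active in fetal and overloaded myocardium. Nppa and Nppb encode atrial and B-type natriuretic peptide, hormones that rise under wall stretch, and Nppa is silenced in most of the ventricle after birth. Ankrd1 encodes a nuclear and titin-bound ankyrin repeat protein of stretched muscle. Myh6 lies beside Myh7 and Nppa beside Nppb on their chromosomes, with 0 protein-coding genes between the members of either pair in the GRCr8 annotation.

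The sequences before these genes hold letters that muscle transcription factors are known to bind. RefSeq promoter sequences were at hand for 6 of the 7 genes. Shown are those of the actin pair and of the natriuretic peptide pair, because within both pairs 1 gene moved in isografts and its partner did not pass the test. Each is printed 5′ to 3′ on the gene's strand, from 250 bases before the annotated start to 30 after it, with GRCr8 coordinates. Capitals mark matches, on either strand, to the CArG box (serum response factor), CATTCC (the M-CAT element, TEAD factors), GATAA (GATA factors) and TATAAA (the TATA box).
Acta1 (chr19:68784165-68784444, minus strand): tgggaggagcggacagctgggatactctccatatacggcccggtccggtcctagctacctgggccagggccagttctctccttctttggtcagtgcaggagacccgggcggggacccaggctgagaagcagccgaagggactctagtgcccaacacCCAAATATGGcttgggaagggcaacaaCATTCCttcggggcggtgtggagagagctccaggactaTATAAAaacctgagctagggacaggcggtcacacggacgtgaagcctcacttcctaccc
Actc1 (chr3:121271798-121272077, minus strand): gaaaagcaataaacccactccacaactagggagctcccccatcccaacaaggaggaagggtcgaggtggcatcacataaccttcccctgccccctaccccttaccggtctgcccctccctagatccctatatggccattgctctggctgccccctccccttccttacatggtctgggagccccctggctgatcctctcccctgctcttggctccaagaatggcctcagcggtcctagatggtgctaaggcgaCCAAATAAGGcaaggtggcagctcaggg
Nppa (chr5:163711934-163712213, plus strand): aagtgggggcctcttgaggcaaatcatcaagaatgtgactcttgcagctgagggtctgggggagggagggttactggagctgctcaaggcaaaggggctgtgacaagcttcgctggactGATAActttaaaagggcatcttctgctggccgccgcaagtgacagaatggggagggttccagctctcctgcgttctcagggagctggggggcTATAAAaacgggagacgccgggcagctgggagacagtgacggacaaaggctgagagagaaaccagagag
Nppb (chr5:163699758-163700037, plus strand): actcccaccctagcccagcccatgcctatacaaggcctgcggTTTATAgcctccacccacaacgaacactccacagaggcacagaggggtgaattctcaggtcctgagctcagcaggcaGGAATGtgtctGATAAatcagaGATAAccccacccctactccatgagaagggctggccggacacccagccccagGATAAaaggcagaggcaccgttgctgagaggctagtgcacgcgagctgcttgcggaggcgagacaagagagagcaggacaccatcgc
The Acta1 window held a CArG box at -94, CATTCC at -67 and TATAAA at -29, counting the base before the start as -1 and giving the first base of each match. The Actc1 window held a CArG box that starts at base 3 counted from the annotated start. The Nppa window held GATAA at -131 and TATAAA at -39. The Nppb window held 3 GATAA matches, at -120, -109 and -57, and 1 match each to CATTCC and TATAAA on the opposite strand. The CArG box was in 1.59% of all 33469 promoter windows of this length, against 13.5% for CATTCC, 25.3% for GATAA and 13.7% for TATAAA. The Myh6 window held 1 CATTCC, and the Myh7 window held no match to these motifs. In the Myh7 window an ATG lies within the 30 bases after the annotated start. That window may therefore lie downstream of the promoter, and its lack of matches is not read as a trait of it. Whether the annotated starts are those used in the heart was not tested for any of the 6 windows. The MEF2 site, TNAAGTG and AGGTCA were not in any of the 6 windows, and they were in 0.553%, 10.8% and 15.3% of all windows. No marked matches overlap.

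Signals are given as multiples of the median signal of the same array, and a fold change compares the means of log2 signals of the groups. Array medians lay between 38.3 and 50.8 deposited signal units. A probeset passed when its limma p-value, adjusted over all 15866 probesets, was at most 0.10. The strain effect compares native BN with native DA hearts, the surgical effect compares isografts with native DA hearts, and the rejection effect compares allografts with isografts. These comparisons share groups and so are not independent of each other. Each probeset has its own brightness, so levels were compared between hearts and never between probesets.

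Of the 13 member probesets, 2 passed in the strain effect, both higher in BN hearts, where 2.94% of all probesets passed and 1.48% passed as higher. In the surgical effect 4 passed, all higher in isografts, against 13.7% of all probesets and 7.15% as higher. In the rejection effect 10 passed, all lower in allografts, against 41.4% of all probesets and 21.2% as lower. With a 3-fold change also required, and a signal no lower than the array's median in 50% or more of the hearts of either group, the counts were 2, 3 and 7. The backgrounds under that rule were 0.359%, 0.908% and 8.86%. The median log2 fold change over the 13 was 0.31, 0.28 and -1.75 in these 3 comparisons, beside -0.025, -0.085 and 0.018 over all probesets.

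**Figure D1:**
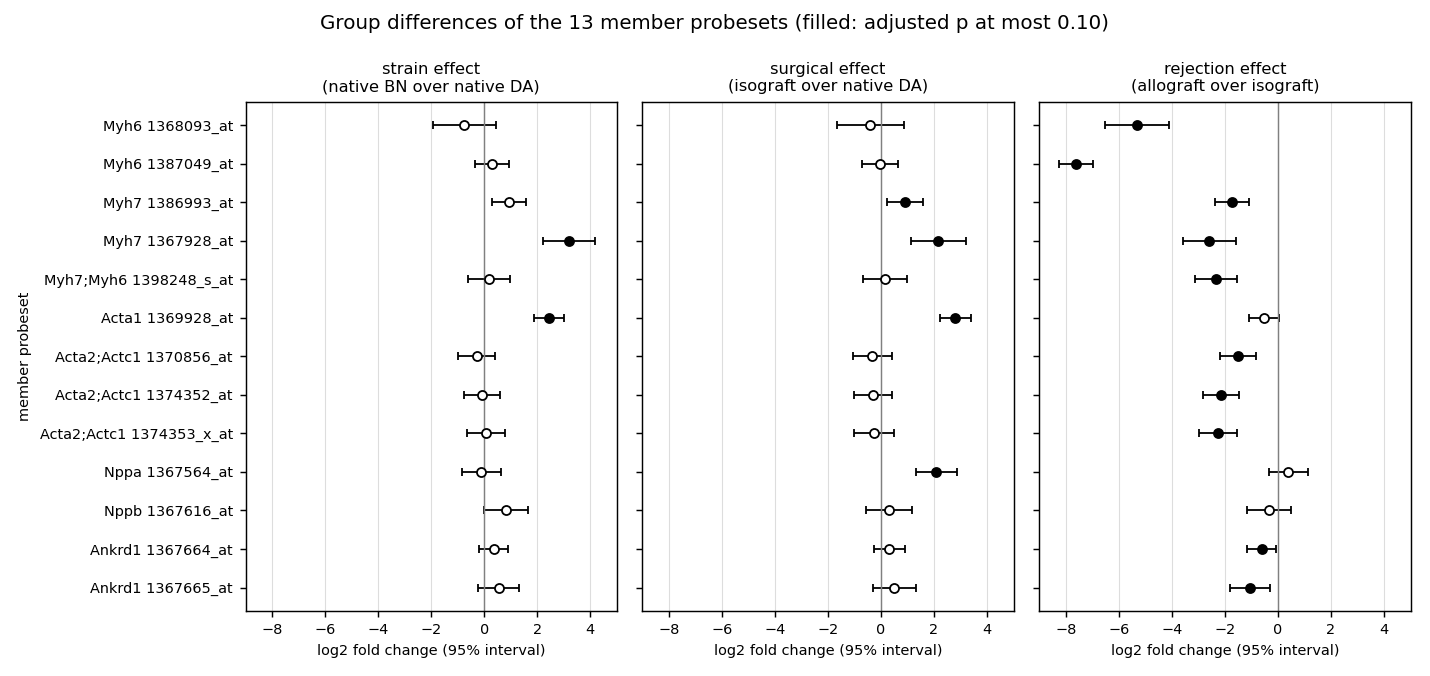
Log2 fold changes (x axis) of the 13 member probesets (y axis) in the strain, surgical and rejection effects, with 95% intervals as bars and filled points for adjusted p at most 0.10. Acta1 and the dimmer Myh7 probeset (1367928_at) sit right of 0 in the first 2 panels, Nppa in the surgical panel, and both Myh6 probesets at -5.31 and -7.60 in the rejection panel.

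Myh6 signal was far lower in allografts than in the other hearts, and its change in isografts did not pass the test. The brighter probeset (1368093_at) read 106, 91.0, 126 and 118 array medians in the native DA hearts of recipients I11, I12, I13 and I9. In native BN hearts A3 to A7 it read 65.4, 52.7, 50.7, 74.2 and 91.7. The isografts, in the same order of recipients as the native DA hearts, read 60.3, 80.2, 109 and 87.6. The allografts A3 to A7 read 0.538, 1.65, 4.05, 1.12 and 9.52, so the highest allograft was far below the lowest of the other 13 hearts. The rejection effect was 39.7-fold lower (log2 -5.31, SE 0.57, adjusted p = 1.51e-06). Allografts were 52.8-fold lower than native DA hearts and 31.5-fold lower than the native BN hearts of the same rats. The sizes of these 3 folds rest in part on dim signals, since allograft A3 lay at percentile 34.8 of its array, within the range of this probeset on blood mononuclear cell arrays (highest percentile 37.7). The blood arrays are of another type (RAE230 2.0) and their RNA was prepared with another kit, so the percentiles compare only roughly. Neither the strain effect (-0.75, SE 0.57, adjusted p = 0.602) nor the surgical effect (-0.41, SE 0.60, adjusted p = 0.714) passed, with 95% intervals of -1.95 to 0.45 and -1.68 to 0.86.

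The dimmer Myh6 probeset (1387049_at) gave the same direction in allografts. It lay between 3.62 and 9.90 array medians in the 13 other hearts and between 0.0192 and 0.0551 in the 5 allografts. These allograft signals were among the lowest of their arrays, at percentiles 1.01 to 6.32, so the size of the fall (log2 -7.60, SE 0.30) depends on signals near the bottom of the scale. With 0.25 array medians added to every signal the fall was -4.39 (SE 0.21, adjusted p = 1.7e-11), and that of the brighter probeset was -5.08. In the strain effect the Myh6 probesets differed in sign, with 0.31 (SE 0.30, adjusted p = 0.703) for the dimmer one, and neither passed.

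Myh7 was higher in BN than in DA native hearts by 1 of its 2 probesets, higher in isografts by both, and lower in allografts than in isografts by both. The brighter probeset (1386993_at) read 60.6, 58.0, 59.7 and 74.5 array medians in native DA hearts I11, I12, I13 and I9. Native BN hearts A3 to A7 read 113, 155, 141, 104 and 104. Every BN heart was thus above every DA heart, yet the strain effect of 1.93-fold (log2 0.95, SE 0.31) did not pass (adjusted p = 0.148). The isografts read 95.8, 96.1, 151 and 142, again all above the native DA hearts (1.89-fold, log2 0.92, SE 0.32, adjusted p = 0.091). That call was lost when any one of 13 hearts was left out (it held without allograft A4, A5, A6 or A7 or native BN heart A4), with adjusted p from 0.0527 to 0.184 over all 18 omissions. The allografts read 37.9, 68.2, 23.7, 18.4 and 48.8, below every isograft (3.36-fold lower, log2 -1.75, SE 0.31, adjusted p = 0.000228).

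The dimmer Myh7 probeset (1367928_at) moved further in the strain, surgical and rejection effects. It read 2.69, 5.95, 2.36 and 3.42 in native DA hearts I11, I12, I13 and I9, and 26.4, 54.4, 44.3, 20.1 and 22.7 in native BN hearts A3 to A7. Isografts read 27.4, 11.3, 14.1 and 11.7. Allografts read 1.70, 8.59, 2.14, 2.00 and 1.58, overlapping the native DA hearts and lying below every isograft. The strain effect was 3.21 (SE 0.47, adjusted p = 0.0014), the surgical effect 2.16 (SE 0.49, adjusted p = 0.0166) and the rejection effect -2.59 (SE 0.47, adjusted p = 0.000323). Against native DA hearts, allografts were lower by the brighter Myh7 probeset (-0.83, SE 0.31, adjusted p = 0.0358), while the dimmer one gave -0.43 (SE 0.47, adjusted p = 0.496). The 2 Myh7 probesets thus had the same sign in these comparisons but parted in size, and in the test for the strain effect and for allografts against native DA hearts.

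The shared Myh7 and Myh6 probeset (1398248_s_at) ranged from 70.2 to 134 array medians in native hearts and isografts, with no strain or surgical call (log2 0.18 and 0.16, SE 0.37 and 0.39). In allografts it ranged from 8.86 to 46.3 and was 5.04-fold lower than in isografts (log2 -2.33, SE 0.37, adjusted p = 8.95e-05).

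The balance of the 2 myosins within each heart, as log2 Myh7 minus log2 Myh6 by the brighter probesets, is given as a description without a test. Mean and SD were -0.80 ± 0.20 for the 4 native DA hearts, 0.89 ± 0.60 for the 5 native BN hearts, 0.53 ± 0.20 for the 4 isografts and 4.09 ± 1.67 for the 5 allografts. The highest native DA heart was at -0.65 and the lowest of the other 14 hearts at 0.18. Native DA hearts thus stood apart with the lowest values. The sign of a value depends on probeset brightness, so only differences between groups are read. By the dimmer probesets the means were -0.77, 2.13 and 1.42 in native DA hearts, native BN hearts and isografts. No such value is given for allografts, whose dimmer Myh6 signal was at the bottom of the scale. The shift in allografts went with falls in both myosins, and Myh6 fell further than Myh7.

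**Figure D2:**
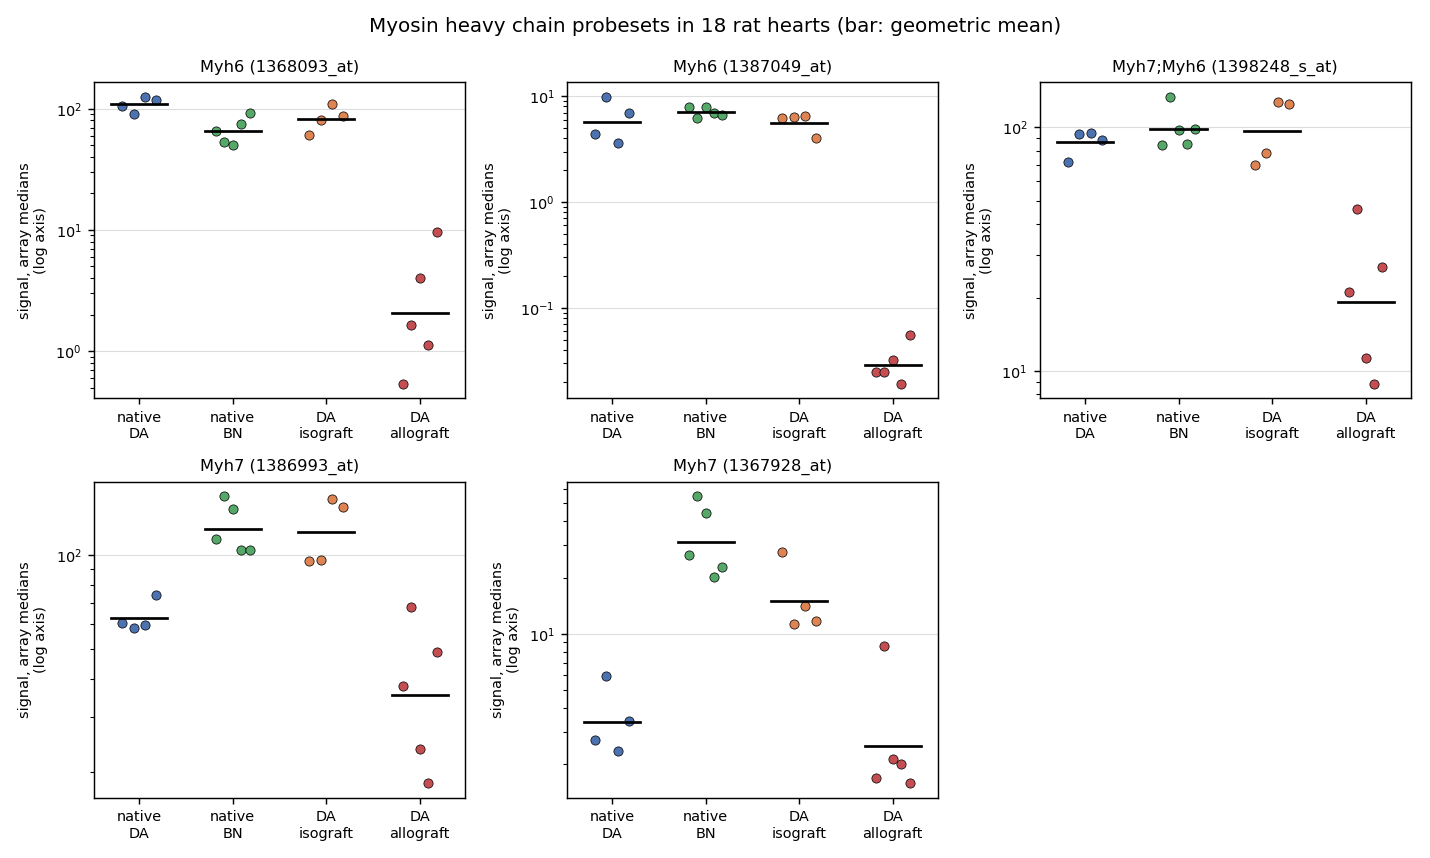
Signal in array medians (log y axis, its range set per panel) of the 5 myosin heavy chain probesets in native DA, native BN, isograft and allograft hearts, 1 point per heart and a bar at the geometric mean. Native DA hearts lie below native BN hearts and isografts for both Myh7 probesets, and allografts lie below 10 array medians for the brighter Myh6 probeset.

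Acta1 separated native DA hearts from the other 3 groups. It read 6.72, 7.35, 8.94 and 7.77 array medians in native DA hearts I11, I12, I13 and I9, against 40.5, 35.7, 55.3, 36.6 and 43.2 in native BN hearts A3 to A7. The isografts read 60.0, 45.8, 52.0 and 57.3. The allografts read 54.0, 60.7, 24.2, 21.6 and 39.7. Even the lowest allograft was above every native DA heart. Acta1 was 6.99-fold higher in isografts than in native DA hearts (log2 2.80, SE 0.28, adjusted p = 5.94e-05), and 4.82-fold higher in allografts than in native DA hearts (log2 2.27, SE 0.26, adjusted p = 2.21e-06). The strain effect was 2.45 (SE 0.26, adjusted p = 9.7e-05). Allografts did not pass against isografts (-0.54, SE 0.26, adjusted p = 0.132, 95% interval -1.09 to 0.022) or against the native BN hearts of the same rats (-0.18, SE 0.25, adjusted p = 0.605).

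Actc1 could be read only together with Acta2, the smooth muscle alpha-actin gene, by 3 shared probesets, and none of these passed in the strain or surgical effects. The brightest (1370856_at) read 144, 147, 235 and 187 in native DA hearts, 119, 176, 145, 131 and 153 in native BN hearts, 116, 112, 159 and 179 in isografts, and 74.8, 93.1, 27.0, 27.1 and 55.3 in allografts. All 5 allografts lay below the other 13 hearts. The rejection effect of the 3 shared probesets was -1.50, -2.15 and -2.26 (SE 0.33, 0.32 and 0.34), and each passed (largest adjusted p = 0.00152). The probeset of Acta2 alone (1370857_at) ranged from 2.17 to 2.66 in native DA hearts, 3.02 to 4.90 in native BN hearts, 2.68 to 5.50 in isografts and 4.02 to 5.69 in allografts. It did not fall with the shared probesets (rejection effect 0.37, SE 0.22, adjusted p = 0.219). Within a heart, log2 Acta1 minus the brightest shared actin had a mean and SD of -4.51 ± 0.17 over the 4 native DA hearts, -1.78 ± 0.34 over the 5 native BN hearts, -1.38 ± 0.32 over the 4 isografts and -0.41 ± 0.18 over the 5 allografts.

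Nppa rose in transplanted hearts whether or not they were rejecting. It read 8.33, 15.7, 17.2 and 13.4 array medians in native DA hearts I11, I12, I13 and I9 and 7.50, 14.5, 17.9, 16.3 and 8.69 in native BN hearts A3 to A7. The isografts read 65.4, 38.2, 48.8 and 79.4. The allografts read 97.5, 102, 39.9, 52.3 and 97.9. The lowest transplanted heart was above the highest native heart. Nppa was 4.23-fold higher in isografts than in native DA hearts (log2 2.08, SE 0.37, adjusted p = 0.00371), 5.52-fold higher in allografts than in native DA hearts (2.46, SE 0.35, adjusted p = 1.97e-05), and 5.94-fold higher in allografts than in the native BN hearts of the same rats (2.57, SE 0.33, adjusted p = 6.51e-06). Neither the strain effect (-0.11, SE 0.35, adjusted p = 0.933) nor the rejection effect (0.38, SE 0.35, adjusted p = 0.442) passed. Allografts A5 and A6 had the lowest Nppa of the allografts, and leaving out both was chosen after seeing the data. Without them the rejection effect was 0.83 and passed (adjusted p = 0.0812 by limma). Leaving out the lowest allografts raises this value by construction, so the pass is not read as a rise in rejection. Nppa is also an atrial gene. Summed over 8 atrial genes, signal was 42.4 to 44.6 in native DA hearts, 29.1 to 48.7 in isografts and 8.26 to 15.0 in allografts. The brightest of them by far was Pam (mean percentile 96.6), which fell in the rejection effect (-2.07, SE 0.26). In the surgical effect 1 of the 8 was higher, the atrial light chain Myl4 (0.72, SE 0.23), and 1 lower, Myl7 (-0.94, SE 0.27). The part of atrial tissue in the Nppa signal was not tested. Of the 8, between 4 and 6 were below the array median in every array of a group.

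Nppb did not follow Nppa. It read 22.2, 28.6, 53.0 and 46.7 in native DA hearts I11, I12, I13 and I9, 46.6, 68.7, 63.7, 54.5 and 83.5 in native BN hearts A3 to A7, and 43.9, 34.2, 42.7 and 54.1 in isografts. The allografts read 36.0, 75.7, 13.8, 24.7 and 49.99, a 5.47-fold range that spans all isografts. The surgical effect was 0.28 (SE 0.41, adjusted p = 0.71, 95% interval -0.58 to 1.15) and the rejection effect -0.34 (SE 0.39, adjusted p = 0.554, 95% interval -1.16 to 0.49). Of all comparisons made, Nppb passed in 1, allografts against the native BN hearts of the same rats (-0.86, SE 0.37, adjusted p = 0.0686), and that call was lost without native BN heart A4, A5 or A7 or allograft A5 or A6 (-0.54, adjusted p = 0.192, without allograft A5). With quantile normalization it passed instead in the difference of differences (-1.14, adjusted p = 0.0761). Log2 Nppa minus log2 Nppb averaged -1.43 and -2.34 in native DA and BN hearts and 0.37 and 1.09 in isografts and allografts.

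Ankrd1 was measured by 2 probesets that moved the same way. The brighter (1367664_at) read 70.0, 64.5, 75.3 and 78.1 in native DA hearts, 82.8, 103, 97.6, 94.9 and 85.0 in native BN hearts, 78.9, 74.1, 99.1 and 111 in isografts, and 77.8, 94.2, 30.9, 43.2 and 68.5 in allografts. The allografts overlapped the isografts, and allografts A5 and A6 were the lowest of all hearts. The rejection effect was -0.62 (SE 0.26, adjusted p = 0.0712) by this probeset and -1.06 (SE 0.36, adjusted p = 0.0293) by the dimmer one (1367665_at). Without allografts A5 and A6 the effects were -0.17 (adjusted p = 0.509) and -0.49 (adjusted p = 0.21), and with isografts and allografts fitted alone neither passed (adjusted p = 0.185 and 0.104). For the brighter probeset the call was also lost without allograft A5 or A6 or isograft I9 or I13 alone (-0.39, adjusted p = 0.168, without A5). No strain or surgical call was made for Ankrd1 (log2 0.32 to 0.55).

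**Figure D3:**
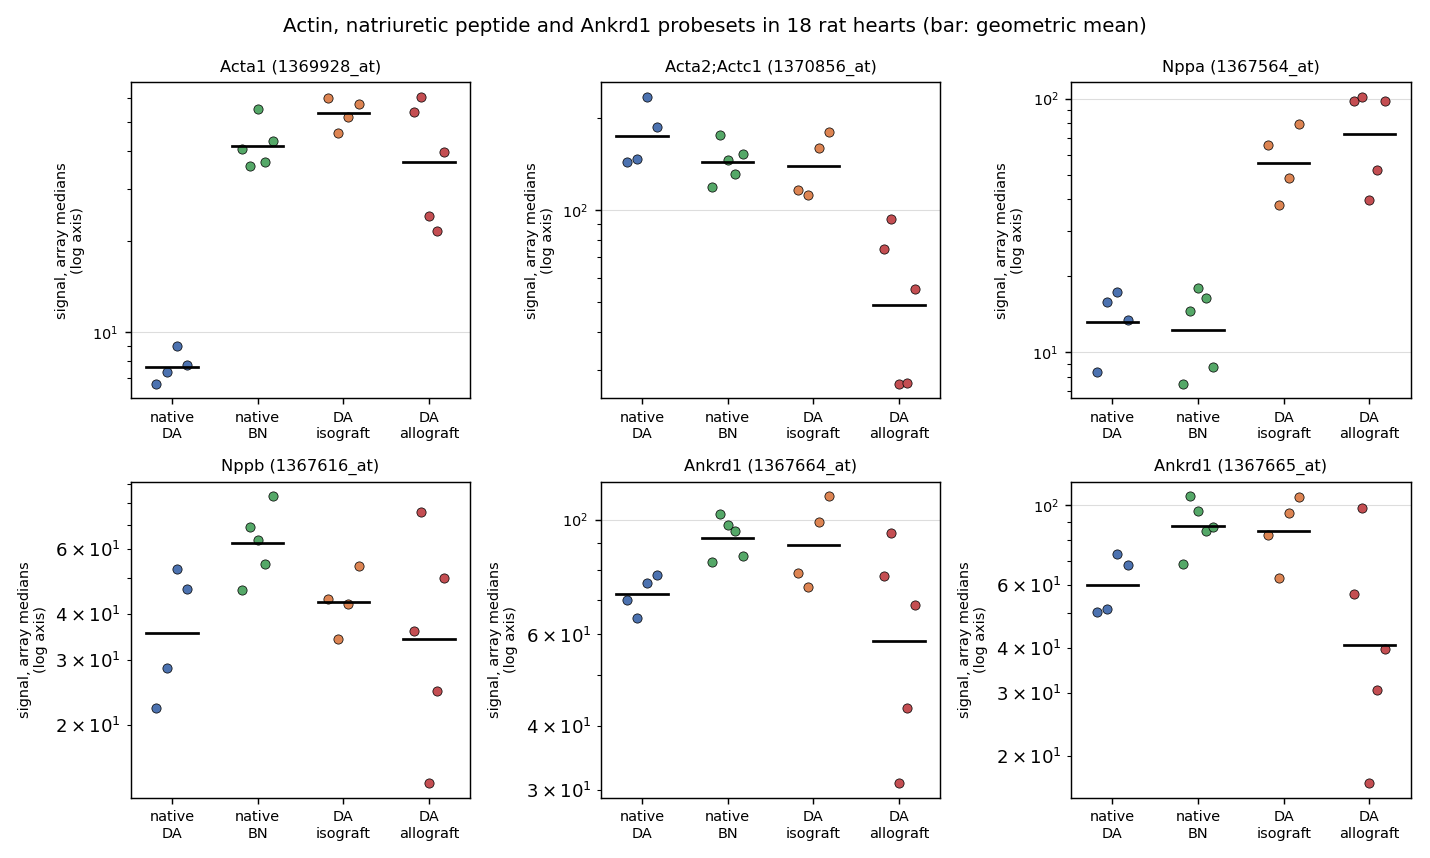
Signal in array medians (log y axis, its range set per panel) of Acta1, the brightest shared Acta2 and Actc1 probeset, Nppa, Nppb and both Ankrd1 probesets in the 4 groups, 1 point per heart and a bar at the geometric mean. Native DA hearts stand apart for Acta1 at 6.72 to 8.94 array medians, and the 9 transplanted hearts lie above the 9 native hearts for Nppa.

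Set against the native heart of the same rat, the isograft was higher in 4 of 4 recipients for Acta1, Nppa and both probesets of Myh7 and of Ankrd1. It was lower in 4 of 4 for the brighter Myh6 probeset (log2 -0.82 to -0.18) and 2 of the 3 shared actin probesets. The allograft was higher in 5 of 5 recipients for Nppa, in 2 of 5 for Acta1 and in 1 of 5 for Nppb. It was lower in 5 of 5 for every myosin, shared actin and Ankrd1 probeset. In BN recipients that pair also differs in the strain of the heart. Whether the graft-to-native difference itself differed between recipients was tested as a difference of differences. It passed for 11 of the 13 member probesets, all with a lower value in allograft recipients, where 29.7% of all probesets passed and 15.5% as lower. For Acta1 it was -2.98 (SE 0.37, adjusted p = 2.66e-05), and for Nppa it was 0.49 (SE 0.49, adjusted p = 0.536). Allografts passed against native DA hearts in 9 member probesets, 2 higher and 7 lower (of all probesets 50.2% passed, 22.7% as higher and 27.4% as lower), and against native BN hearts in 12, 1 higher and 11 lower (of all probesets 49.4% passed, 23.1% as higher and 26.3% as lower).

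Markers of cell types moved with these comparisons, and in whole tissue fewer cells of a type and less RNA per cell cannot be told apart. Of all probesets, 2.94% passed in the strain, 13.7% in the surgical and 41.4% in the rejection effect. In the rejection effect, 17 of 18 cardiac myocyte genes outside the member set were lower (median log2 -2.16), and their summed signal was 951 to 1614 array medians in isografts and 244 to 632 in allografts. Allografts A5 and A6 had the lowest sums, 244 and 289. Of 17 leukocyte genes 16 were higher, with sums of 96.0 to 120 in isografts and 325 to 588 in allografts. Of 12 fibroblast and matrix genes 7 were lower, with Pdgfra (-3.13, SE 0.73) and Lum (-2.56, SE 0.56) lowest, and Fn1 was higher (2.44, SE 0.27). Of 8 endothelial genes 3 were higher and 1 lower, a share near the 41.4% of all probesets. None of 4 red cell genes passed by limma. In the surgical effect 1 myocyte gene was lower, 8 of 17 leukocyte genes were higher and 9 of 12 fibroblast and matrix genes were higher (median 2.29). The part of these cells in the member results was not tested. In the strain effect 0 of 18 myocyte genes passed by limma, and the myocyte sums overlapped (1172 to 1751 in DA, 1134 to 1647 in BN). The endothelial sums did not overlap (26.8 to 27.4 in DA, 29.0 to 38.1 in BN), with Vwf (1.82, SE 0.23) and Kdr (0.58, SE 0.13) higher in BN hearts. The leukocyte gene Coro1a was higher (0.80, SE 0.22) and the matrix gene Sparc lower (-0.96, SE 0.25), and red cell sums were 165 to 282 in DA and 90.3 to 167 in BN hearts. Of 16 skeletal muscle genes, 1 was higher in BN hearts, the fast myosin Myh1 by its brightest probeset (1.05, SE 0.22, adjusted p = 0.0218). The summed skeletal signal was 23.6 to 31.0 in DA and 44.6 to 51.1 in BN hearts. The 5 Myh1 probesets disagreed, since another passed as lower in BN hearts (-2.07, SE 0.23, adjusted p = 0.000125), and without Myh1 the sum was 6.05 to 8.69 in DA and 5.08 to 8.12 in BN hearts. In isografts, where Acta1 and Myh7 were also higher than in native DA hearts, the sum was 23.2 to 39.0, or 9.89 to 12.3 without Myh1. In the surgical effect 2 of the 16 genes passed, both higher, Myl1 (1.30, SE 0.22) and Casq1 (1.13, SE 0.22). That share is near the 13.7% of all probesets. Between 11 and 13 of the 16 were below the array median in every array of a group. On 20 blood mononuclear cell arrays of the series, the member probesets lay at median percentiles of 6.17 to 57.2, against median percentiles of 88.3 to 99.99 over the 18 heart arrays. The array type and RNA preparation differ between blood and heart, so these percentiles compare only roughly.

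Since myocyte genes fell together in allografts, the members were also set against them. Each array was centred on the median of the 18 myocyte genes, which moved the median of all probesets to 1.98 in the rejection effect. On this scale 6 member probesets were higher in allografts than in isografts and 2 lower, where 87.3% and 1.56% of all probesets passed in those directions. A value must therefore be read against the shift of all probesets. Nppa was 2.35 (SE 0.35, adjusted p = 1.16e-05 by limma against 0), while without centring it did not pass (0.38, SE 0.35, adjusted p = 0.442). It lay a little above that shift, but its excess over the shift was not tested on this scale. Nppb at 1.63, Acta1 at 1.43, Ankrd1 at 1.35 and 0.90, and the brightest shared actin at 0.46 passed as higher but lay under the shift. Both Myh6 probesets stayed lower (-3.35 and -5.64, adjusted p = 5.04e-05 and 2.24e-08), so Myh6 fell beyond the median of the myocyte genes. The brighter Myh7 probeset (0.22, SE 0.23, adjusted p = 0.374) did not pass on this scale. Relative to the myocyte genes the 5 allografts were closely grouped for the brighter Myh7 probeset (0.95 to 1.19, SD 0.10), although their signals ranged 3.71-fold. Nppa, with a 2.55-fold range of signals, lay at 1.77 to 2.60 (SD 0.36). The shared myosin (SD 0.25), Acta1 (0.34), the brightest shared actin (0.34) and the brighter Ankrd1 probeset (0.38) had spreads like that of Nppa. The remaining member probesets spread more (SD 0.44 to 1.65). In the surgical effect the same 4 member probesets passed on this scale as before, namely those of Acta1 (2.96), Nppa (2.24) and both Myh7 probesets (1.07 and 2.31), where 0.756% of all probesets passed as higher.

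**Figure D4:**
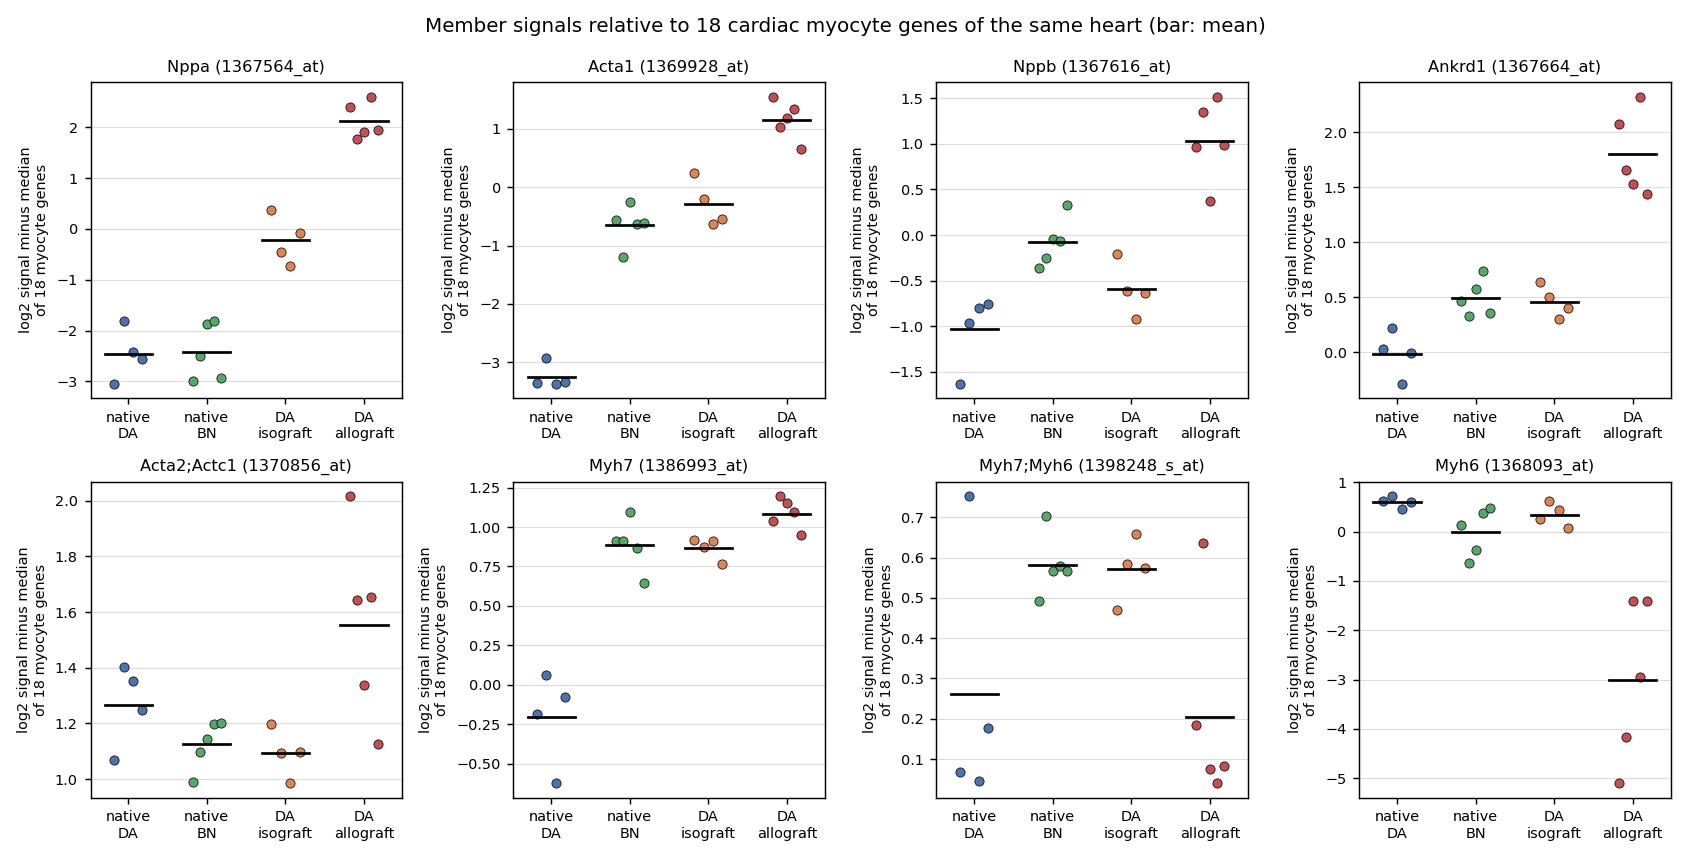
Log2 signal of 8 member probesets minus the median log2 signal of 18 cardiac myocyte genes in the same heart (y axis, its range set per panel), 1 point per heart and a bar at the group mean. Allograft means are highest for Nppa (2.12), Acta1 (1.15), Nppb (1.04), Ankrd1 (1.81), the shared actin (1.56) and Myh7 (1.08). They are lowest for Myh6 (-3.01) and the shared myosin (0.20). On this scale the median of all probesets was 1.98 in the rejection effect.

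Other genes of the fetal and stretch programmes were read from lists. Of all probesets 2.94% passed in the strain effect, 13.7% in the surgical effect and 41.4% in the rejection effect. The list counts that follow stand beside those shares. Of 12 fetal, atrial and smooth muscle contractile isoforms, 5 were higher and 1 lower in isografts than in native DA hearts. Among the higher were the alpha-actinin Actn1 (1.97, SE 0.25), the beta-tropomyosin Tpm2 (1.56, SE 0.34) and the nonmuscle myosin Myh10 (1.39, SE 0.29). In the rejection effect 2 rose, Actn1 among them (1.31, SE 0.23), and 5 fell, led by the smooth muscle gene Tagln (-1.99, SE 0.66) and the atrial myosin light chain Myl4 (-1.62, SE 0.22). None of the 12 passed in the strain effect by limma.

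Of 14 relatives of Ankrd1 and stretch genes of the Z disc and titin, 2 passed in the surgical effect, both higher in isografts. That share is near the 13.7% of all probesets. The 2 genes were the ankyrin repeat gene Ankrd23 (1.97, SE 0.43, adjusted p = 0.0122) and the filamin Flnc (1.38, SE 0.31, adjusted p = 0.0157). In the rejection effect 11 of 14 were lower and 0 higher, led by the calsarcin Myoz2 (-3.44, SE 0.30), the ubiquitin ligase Trim63 (-3.06, SE 0.23) and Fhl2 (-2.86, SE 0.26). Their median, -1.14, was below both Ankrd1 probesets.

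Of 10 genes that process, receive or clear the natriuretic peptides, 4 passed in the rejection effect, a share close to the 41.4% of all probesets. In the surgical effect 1 was lower in isografts, the clearance receptor Npr3 (-0.95, SE 0.28, adjusted p = 0.0492). In allografts against isografts the guanylyl cyclase receptor Npr1 (1.03, SE 0.40) and the protease Furin (0.56, SE 0.16) were higher, and the degrading enzyme Ide (-0.49, SE 0.15) and the receptor Npr2 (-0.45, SE 0.18) were lower.

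Of 24 regulators known to act on the member promoters, 13 were lower and 1 higher in allografts than in isografts. The retinoid receptor Rxrg (-2.19, SE 0.20), Gata6 (-2.04, SE 0.15) and the repressor Rest (-1.72, SE 0.35) fell most. Gata4 (-1.32, SE 0.17) and Tead1 (-1.67, SE 0.16), whose families bind GATAA and CATTCC, also fell. Neither fell as far as the median of the myocyte genes (-2.16). Among genes whose windows hold GATAA, Nppa (0.38, SE 0.35) and Nppb (-0.34, SE 0.39) did not pass in this comparison. Among those with CATTCC, the brighter Myh6 probeset fell (-5.31, SE 0.57), and Acta1 (-0.54, SE 0.26) and Nppb did not pass. The part of these factors in the member results was not tested. In the strain effect Srf, which binds the CArG box, was higher in BN hearts (0.58, SE 0.15, adjusted p = 0.0723) and Egr1 was lower (-1.22, SE 0.33, adjusted p = 0.0784). In the surgical effect 1 of 24 passed, Rxrg (-0.62, SE 0.21, adjusted p = 0.0769).

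Of 28 other genes of cardiac load and stress, 5 were higher and 2 lower in isografts than in native DA hearts. Timp1, an inhibitor of matrix proteases (2.73, SE 0.39), the matricellular gene Ccn2 (2.34, SE 0.25) and osteopontin, Spp1 (2.17, SE 0.35), rose most. In the rejection effect 8 rose and 14 fell. The potassium channel subunit Kcnip2 (-4.28, SE 0.41) and the calcium release channel Ryr2 (-4.09, SE 0.65) fell most, and Spp1 rose further (4.27, SE 0.34). In the strain effect Ccn2 was higher (0.92, SE 0.24) and Ccn1 lower (-1.41, SE 0.33) in BN hearts.

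The genes whose profile over the 18 hearts was nearest to each member are given as a description, by the root mean square log2 difference after centring each on its own mean. Nearest to Acta1 were Ankrd23 (0.65), Synpo (0.69) and Ccn2 (0.69), beside a median of 1.19 over all genes compared. For Nppa they were Tnfrsf12a, Tubb5 and Tmbim1 (0.57 to 0.58, median 1.32). The shared actin was nearest to the myocyte genes Myl2, Mb and Cox6a2 (0.17 to 0.19, median 0.89), and the shared myosin probeset to Nexn, Tmod1 and Pam (0.21 to 0.26, median 1.16). Myh6 had Dhrs7c, Ces1d and Rpl3l (0.60 to 0.71, median 2.52), and Myh7 had Prepl, Svil and Nol3 (0.34 to 0.39, median 0.91). Nppb had Ciao2b, Rrad and Des (0.36 to 0.40, median 0.75), and Ankrd1 had Zfp91, Ube2g1 and Clic5 (0.21, median 0.58). Part of each likeness is the difference between groups that the points share.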

How the data were processed

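Heart RNA was hybridised to Affymetrix RAE230A arrays (18) and PBMC RNA to RAE230 2.0 arrays (20, used for expression level only). The deposited values are linear signal intensities per probeset from the authors' MAS5 software (GCOS), each array scaled to a common trimmed mean, with no detection calls in the tables used here. The depth of an array is not a count, so the number of hearts limits the precision. The 57 control probesets were left out. Each array was divided by its median and log2 transformed, as the authors describe. The authors tested by ANOVA at an FDR of 10%, and also required present calls and a 3-fold change. Here limma 3.58.1 (lmFit, eBayes) in R 4.3.3 fitted 4 group means with 14 residual degrees of freedom, and p-values were adjusted by the Benjamini-Hochberg method over 15866 probesets. The method was tested on simulated data.

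Gene symbols came from the platform annotation (12783 probesets with 1 symbol, 312 with several, 2771 with none), updated by gene ID to GRCr8 names (12748 matched). The brightest probeset with 1 symbol stood for a listed gene. Members and lists were chosen with earlier results of these data known. All member probesets are named. From each list, up to 3 genes with the largest change past the test are named for a comparison, and others only where a result turns on them. Gata4, Tead1 and the Acta2 and Myh1 probesets were named for that last reason.

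Native and transplanted hearts with the same recipient number come from 1 rat, per the labels and methods. Their deviations from the group means correlated from -0.04 to 0.12 over 9 pairs. The main fit had no block, and fits with the recipient as a block were alternatives. The labels give no array batch for hearts. The p-values measure the spread between rats of 1 experiment.

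Alternatives were quantile normalization, no further scaling, centring on the myocyte genes, an added 0.25 array medians, an intensity trend, only the groups compared, stricter criteria, and leaving out each heart. Leaving out allografts A5 and A6 together was added after seeing the data. Isoform differences and likeness carry no test.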

Additional observations from a re-analysis of the deposited data

Results flagged for a closer look

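Among 52 groups of 4 or 5 hearts, 1 heart lay far from the rest in 2 groups, where chance alone gives about 1 group in 20. Isograft I9 was low for the dimmer Myh6 probeset (4.01 array medians, the other isografts 6.19 to 6.46). Allograft A4 was high for the dimmer Myh7 probeset (8.59, the other allografts 1.58 to 2.14).

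The difference between graft and native heart differed between allograft and isograft recipients for 11 member probesets (a limma interaction term). On the log2 scale the values were -4.57 and -7.91 for Myh6, -2.70 and -5.79 for Myh7, -2.51 for the shared myosin probeset and -2.98 for Acta1. They were -1.22, -2.07 and -2.32 for the shared actin probesets and -0.98 and -1.61 for Ankrd1. The call for the brightest shared actin probeset was lost without any one of 7 hearts (native BN A4, allografts A5 and A6, native DA I11 and I12, isografts I9 and I13), and that for the brighter Ankrd1 probeset without allograft A6, native DA heart I12 or isograft I9 or I13. In native hearts strain and the graft carried cannot be told apart, and no cause was tested.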

How the results depend on the processing

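All counts of members past the test stayed within 1.5 times the main count under every alternative run. Leaving out 1 heart gave 2 to 3 for the strain effect, 9 to 11 for the rejection effect, 3 to 4 for the surgical effect, 9 to 11 and 11 to 12 for allografts against native DA and BN hearts, and 9 to 12 for the difference of differences. With the recipient as a replicate block, fixed or random, the counts stayed at 2, 10, 4, 12 and 11 and no call changed. No blocked fit was run for allografts against native DA hearts.

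Centring on the myocyte genes turned 25 signs, while it raised the median of all probesets by about 1.9 to 2.0 in comparisons with allografts. Strain values became 0.060 for 1 shared actin probeset (1374352_at) and 0.037 for Nppa, and the surgical value of the dimmer Myh6 probeset 0.13. Rejection values became 0.22 for the brighter Myh7, 1.43 for Acta1, 0.46 for the brightest shared actin, 1.63 for Nppb, and 1.35 and 0.90 for Ankrd1. Against native DA hearts they became 1.29 and 1.69 for Myh7, 0.29 for the brightest shared actin, 2.07 for Nppb, and 1.82 and 1.56 for Ankrd1. Against native BN hearts they became 0.20 for the brighter Myh7, 1.80 for Acta1, 0.43 for the brightest shared actin, 1.11 for Nppb, and 1.31 and 0.87 for Ankrd1. Differences of differences became 0.60 for the brightest shared actin, 0.67 for Nppb, and 0.84 and 0.21 for Ankrd1.

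Quantile normalization turned 7 signs, none past the test. The values became 0.089 and 0.14 (strain) and 0.063 and 0.0013 (surgical) for shared actin probesets, 0.38 for Nppb and 0.12 for the brighter Ankrd1 against native DA hearts, and 0.056 for Acta1 against native BN hearts. It ended the calls of the brighter Myh7 against native DA hearts (-0.40, adjusted p = 0.212) and of Nppb against native BN hearts (-0.62, adjusted p = 0.106), and gave calls for Ankrd1 in the surgical effect (adjusted p = 0.053 and 0.0949) and for Nppb in the difference of differences (-1.14, adjusted p = 0.0761). Without further scaling, the dimmer Myh6 gave 0.011 (surgical) and Nppb 0.066 (against native DA). Without allografts A5 and A6, Nppb gave 0.25 (rejection) and 0.54 (against native DA), Ankrd1 0.15 and 0.011 (against native DA), and Acta1 0.28 (against native BN). That omission also ended the call of the brighter Myh7 against native DA hearts (-0.33, adjusted p = 0.303), and those of Nppb (-0.27) and Ankrd1 (-0.22 and -0.54) against native BN hearts, and in the difference of differences those of the brightest shared actin (-0.65) and the brighter Ankrd1 (-0.53). The brighter Myh7 passed in the strain effect under 6 alternatives (adjusted p = 0.025 to 0.0859) and without allograft A4 or A6 alone (lowest adjusted p = 0.0869). Acta1 passed in the rejection effect with 0.25 array medians added (-0.53, adjusted p = 0.0995) and without allograft A3 or A4 (to -0.72, lowest adjusted p = 0.0353).

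With 1 heart left out, values near 0 changed sign. The ranges were -0.13 to 0.0090 and -0.046 to 0.13 for 2 shared actin probesets (strain), -0.33 to 0.071 for Nppa (strain), -0.25 to 0.24 for the dimmer Myh6 (surgical), -0.34 to 0.27 for Nppb (against native DA) and -0.36 to 0.014 for Acta1 (against native BN). The cause was not tested, except that centring on genes that fall raises all other values by construction.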
